A study of Mus musculus with 6 samples.

Results

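The genes described here encode 10 channels of the TRPM, TRPV and TRPA families: Trpm2, Trpm3, Trpm4, Trpm5, Trpm6, Trpm7, Trpv1, Trpv2, Trpv4 and Trpa1. They were taken by gene symbol from a table of 52513 genes, with no filter on level, and all 10 were found with 1 row each. RNA was measured in the L4-L5 spinal cord of mice labelled WT, 3 libraries after intrathecal saline and 3 after intrathecal morphine at 10 µg in 10 µL, both given for 7 days. The labels do not state the strain, age and sex of the animals. Each sample description holds a run of numbers, with the same runs in both groups and a shorter run in replicate 3. What the numbers stand for is not stated, nor whether a library pooled several animals. Thus p-values measure only the spread between these libraries, which may be technical, and in bulk tissue fewer cells of a type and less RNA per cell cannot be told apart.

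TRP channels are cation channels built of 4 subunits, and most pass calcium along with sodium. Many are polymodal: one channel can answer to temperature, lipids, intracellular calcium or small metabolites, and membrane phosphoinositides keep many of them active. In the pain pathway Trpv1 and Trpa1 are best known from nociceptors, whose cell bodies lie in the dorsal root ganglia and whose axons end in the dorsal horn, while Trpm7, Trpm2 and Trpv2 are made by many other cell types, microglia among them.

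Of these genes 5 were moderately expressed and the other five were scarce. Trpm2, Trpm7, Trpm4, Trpv2 and Trpm3 were at 3.04 FPKM or more in all 6 libraries, where FPKM counts fragments relative to transcript length and library depth. Trpm5, Trpv4, Trpm6, Trpv1 and Trpa1 stayed at 0.87 FPKM or less. Of the 5 moderately expressed genes, which entered the test, 1 passed after morphine: Trpm3 was 1.59-fold lower. Among all tested genes 1.51% passed. The Trpm3 call lay near the threshold, and in a fit that held all 10 genes 0 passed. Differences of the other genes passed in neither fit and lay on both sides of 0.

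The sequence before the transcription start differs among these genes in its content of CG, and 3 windows are printed to show the range: Trpm3, the gene that fell, Trpm7, among the most abundant, and Trpv1, among the scarcest. Each is the 250 bases before a RefSeq start (GRCm38.p6, the same primary chromosomes as mm10), 5′ to 3′ on the gene's strand, with the dinucleotide CG in capitals. None of the 3 windows overlaps an annotated exon.
Trpm3, chr19:22138796-22139045, plus strand: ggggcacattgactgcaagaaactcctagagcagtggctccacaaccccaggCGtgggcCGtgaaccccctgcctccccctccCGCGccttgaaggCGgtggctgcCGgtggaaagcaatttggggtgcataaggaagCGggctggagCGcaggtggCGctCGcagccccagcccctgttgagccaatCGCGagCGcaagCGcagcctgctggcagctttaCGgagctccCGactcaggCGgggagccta
Trpm7, chr2:126876262-126876511, minus strand: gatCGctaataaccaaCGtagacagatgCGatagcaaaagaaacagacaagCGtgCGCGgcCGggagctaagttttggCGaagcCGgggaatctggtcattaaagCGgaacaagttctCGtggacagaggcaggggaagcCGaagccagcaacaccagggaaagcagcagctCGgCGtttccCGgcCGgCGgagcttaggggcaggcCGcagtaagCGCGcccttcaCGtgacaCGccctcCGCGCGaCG
Trpv1, chr11:73233899-73234148, plus strand: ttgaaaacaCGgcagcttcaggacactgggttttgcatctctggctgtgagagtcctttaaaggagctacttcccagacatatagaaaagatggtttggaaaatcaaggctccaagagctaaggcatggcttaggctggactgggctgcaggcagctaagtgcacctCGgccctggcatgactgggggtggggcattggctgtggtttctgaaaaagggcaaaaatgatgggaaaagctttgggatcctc

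CG, which reads the same on both strands, occurred 17 times in the Trpm3 window, 26 times in that of Trpm7 and 2 times in that of Trpv1. Of 32851 such windows of RefSeq genes, 23.5% held at least 17, 9.59% at least 26 and 81.2% at least 2. RefSeq windows were found for 8 of the 10 genes, and among the rest of these the count was 22 for Trpv4, 10 for Trpm2, 7 for Trpm6 and 4 for Trpm5. Trpv2 has 3 annotated starts with 2, 2 and 5. A second Trpm3 start, inside the gene, had 9. The counts do not follow the level: Trpv4 was CG-rich and scarce, and Trpv2, with few, was among the 5 abundant genes. The match is a description of these letters and says nothing of what binds there.

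The estimated depth, derived from the spacing of low FPKM values, was 20.7 to 25.3 M (mega) fragments in saline and 17.3 to 19.3 M in morphine. Summed FPKM over all genes ran from 662470 to 670280 in saline and from 720234 to 741145 in morphine. Neither overlapped between the groups, so depth and FPKM total cannot be told apart from treatment. Between 22754 and 23492 genes were above 0. Markers of spinal cord tissue were high: Snap25, a synaptic protein of neurons, lay between 1498 and 1797 FPKM, and Mbp, a myelin protein, between 8256 and 13192 FPKM. Motor neuron markers were high in saline 1, saline 2 and morphine 2 and low in the other libraries, with a mean log2(FPKM + 1) over the 8-gene list of 4.07, 3.96 and 2.48 in saline, against 2.84, 3.95 and 2.10 in morphine. Morphine was compared with saline in limma on log2(FPKM + 1) over the 14614 genes that reached 1 FPKM in at least 3 libraries, with p-values adjusted over all of them. Fold changes on this scale understate the change of genes near 1 FPKM.

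**Figure D1:**
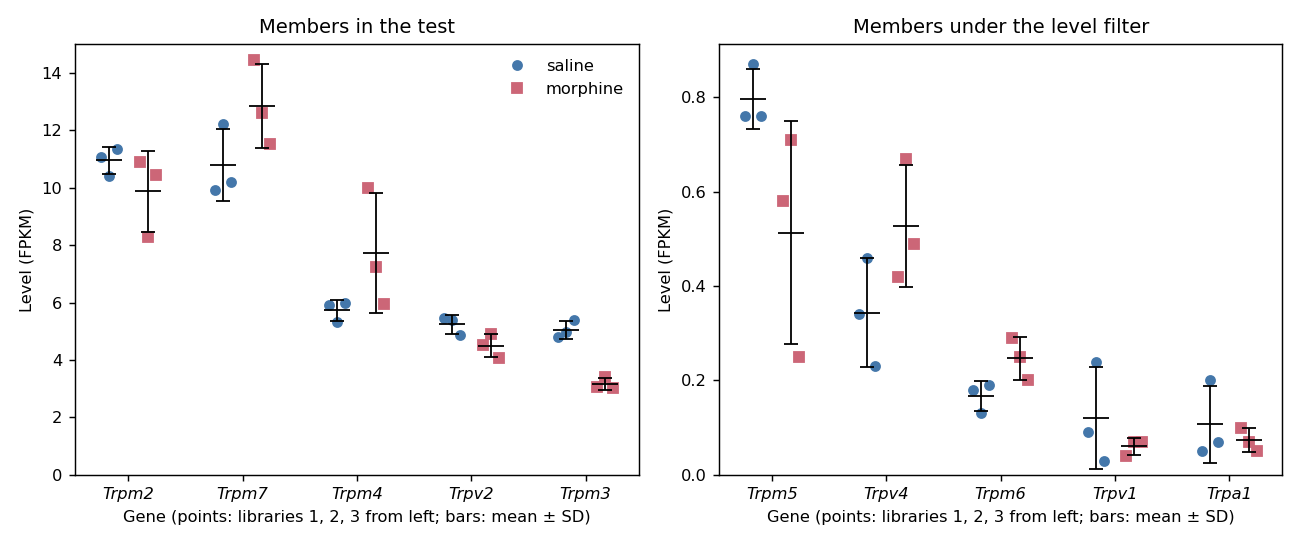
Level in FPKM of the 10 channel genes in each library, with the mean and SD of the 3 libraries per group; the left panel holds the 5 genes in the test and the right panel the 5 under the level filter, on an axis of its own. The morphine values of Trpm3 (3.04 to 3.41 FPKM) all lie under its saline values (4.79 to 5.40 FPKM).

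Trpm3 forms a calcium-permeable channel opened by heat and by the neurosteroid pregnenolone sulphate, and is known as a sensor of noxious heat in sensory neurons. It was at 4.79, 4.99 and 5.40 FPKM in saline 1, 2 and 3, against 3.07, 3.41 and 3.04 FPKM in morphine 1, 2 and 3. Every morphine library was lower than every saline library, and the spread within each group was small beside the gap. The means were 5.06 ± 0.311 FPKM in saline, against 3.17 ± 0.206 FPKM in morphine (SD, n = 3 each). The log2 fold change was -0.54 (95% interval -0.74 to -0.33), with a limma adjusted p of 0.0462. Over the library labels, a two-sided exact permutation gave p = 0.1, the smallest that 3 against 3 allow. Of the 5 channel genes in the test, 1 thus fell and 0 rose. Among all tested genes 1.51% passed (0.561% fell and 0.944% rose), and 1.67% had a more negative fold change than Trpm3. These were 138 genes higher and 82 lower, and after rescaling to TPM 101 higher and 853 lower, with the median fold change of all genes at -0.13 in place of -0.02 and Trpm3 at -0.68.

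The Trpm3 call lies close to the threshold of 0.05. It held in 5 of 10 other settings of the analysis, and the adjusted p over the 10 in limma ran from 0.0337 to 0.0998. It passed without morphine 2 (limma adjusted p = 0.0352) and not without saline 1 (0.146), saline 2 (0.153), saline 3 (0.107), morphine 1 (0.154) or morphine 3 (0.141), while the fold change stayed between -0.58 and -0.50 in these 6 fits. The direction was negative in every setting run.

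**Figure D2:**
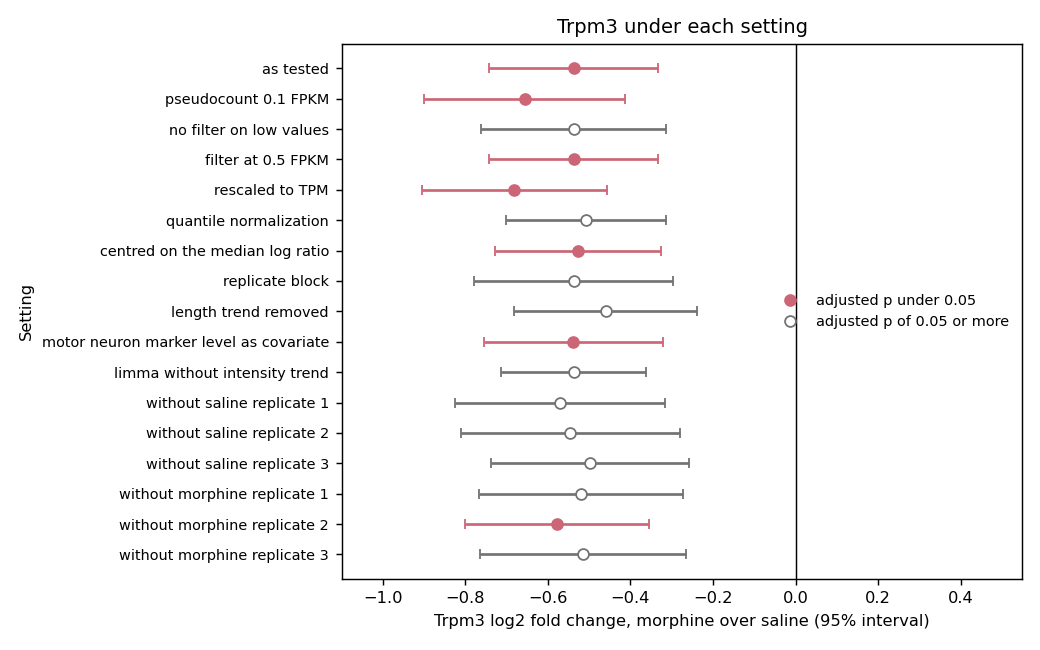
Log2 fold change of Trpm3, morphine over saline, with its 95% interval under the main settings ("as tested"), 10 other settings and with each library left out; filled points passed an adjusted p of 0.05. All intervals lie below 0, and the fold change runs from -0.68 after rescaling to TPM to -0.46 with the length trend removed.

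Trpm3 is a very long gene, at 856365 bp on chromosome 19 (22139046 to 22995410, plus strand, mm10) with 24 annotated transcripts, 17 of them coding. Its exonic length of 24437 nt exceeded that of 99.6% of tested genes. By exonic length, longer genes tended to lower values after morphine. The median log2 fold change was 0.13 in the 2918 shortest and -0.08 in the 2919 longest, where 22 genes fell and 4 rose. With this trend removed, Trpm3 had a log2 fold change of -0.46 and an adjusted p of 0.0719. Its exons share 277 bp with the antisense gene Gm27151 (at most 1.31 FPKM) and 351 bp with C330002G04Rik (at most 0.05 FPKM), and the sources do not say if counting was strand-specific. Mir204, a microRNA gene within a Trpm3 intron, was listed at 0 in all libraries.

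Ratios within a library do not depend on how libraries are scaled against each other. Trpm3 over Trpm7 was 0.482, 0.408 and 0.530 in saline, against 0.213, 0.271 and 0.263 in morphine. Trpm3 over Trpm2 was 0.432, 0.479 and 0.475 in saline, against 0.282, 0.412 and 0.291 in morphine. Trpm3 over Trpm4 ran from 0.809 to 0.938 in saline and from 0.307 to 0.512 in morphine, and Trpm3 over Trpv2 from 0.876 to 1.11 and from 0.678 to 0.745. In none of these 4 ratios did the groups overlap (exact permutation p = 0.1 for each, the smallest possible). These ratios rest on the same Trpm3 values as its own comparison and are no separate evidence.

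Trpm3 was highest in saline 3, a library low in motor neuron markers, and lay between 3.04 and 3.41 FPKM in morphine 1, 2 and 3, of which morphine 2 is high in them. With the motor neuron marker level as a covariate the log2 fold change was -0.54 (limma adjusted p = 0.0383), over 6 libraries in all. Markers of endothelial and mural cells, the cells of vessel walls, averaged lower in every morphine library than in every saline library. Their mean log2 level over the 10-gene list was 2.84, 2.90 and 2.72 in saline 1, 2 and 3. In morphine 1, 2 and 3 it was 2.24, 2.72 and 2.33. The groups did not overlap, with saline 3, the lowest of saline, at 2.723 and morphine 2, the highest of morphine, at 2.720. The vessel marker level thus cannot be told apart from treatment. Of the 9 that were tested, 8 had negative log2 fold changes, and that of Cldn5 was 0.11 (22.5 FPKM in saline, against 24.3 FPKM in morphine). The median of the 9 was -0.36, beside a median of -0.02 over all tested genes. None passed limma's adjusted test and 7 had an unadjusted p under 0.05 in the lower direction, which 11.1% of all tested genes had. The summed level of the list ran from 90.2 to 97.1 FPKM in saline and from 67.8 to 88.9 FPKM in morphine, and 0 of the 10 were at 0 in every library. The part of vessel cells in the Trpm3 result was not tested. Values of other marker lists stand beside these. Ependymal markers had a mean log2 level of 0.98 to 1.21 in saline, against 1.37 to 1.59 in morphine. Of 3 tested 1 rose, the coiled-coil gene Ccdc153 (limma adjusted p = 0.0488), beside 0.944% of all tested genes. Ccdc153 was at 0.11, 0.53 and 0.08 FPKM in saline, against 1.36, 1.25 and 1.83 FPKM in morphine. It met the level filter only through the morphine libraries, so 1 of 3 is no support for a higher ependymal level. The Ccdc153 call held in 4 of 10 other settings and without morphine 2 (limma adjusted p = 0.0408). It did not hold without saline 1 (0.160), saline 2 (0.133), saline 3 (0.118), morphine 1 (0.154) or morphine 3 (0.142). All 3 tested ependymal fold changes were positive, with that of Foxj1, the most abundant, at 0.03 (9.67 FPKM in saline, against 9.85 FPKM in morphine). Meningeal fibroblast markers summed to 34.01 to 46.93 FPKM in saline, against 14.03 to 42.47 FPKM in morphine, which overlap, and 0 of 6 were called by limma or had an unadjusted p under 0.05. Blood and muscle markers summed to 698 to 973 FPKM in saline, against 396 to 561 FPKM in morphine, and of 3 tested 0 were called by limma. The haemoglobin genes Hbb-bs and Hba-a1, 2 of the 3, had an unadjusted p under 0.05 in the lower direction, as had 11.1% of all tested genes. Choroid plexus is another known site of Trpm3. Its 5 markers summed to 1.63 to 1.90 FPKM in saline, against 1.49 to 2.61 FPKM in morphine. Kl, the one tested, lay between 0.97 and 1.63 FPKM, Clic6 between 0.28 and 0.68 FPKM, and Ttr, Folr1 and Aqp1 reached at most 0.15, 0.35 and 0.29 FPKM. The part of these cell types in the Trpm3 result was not tested.

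**Figure D3:**
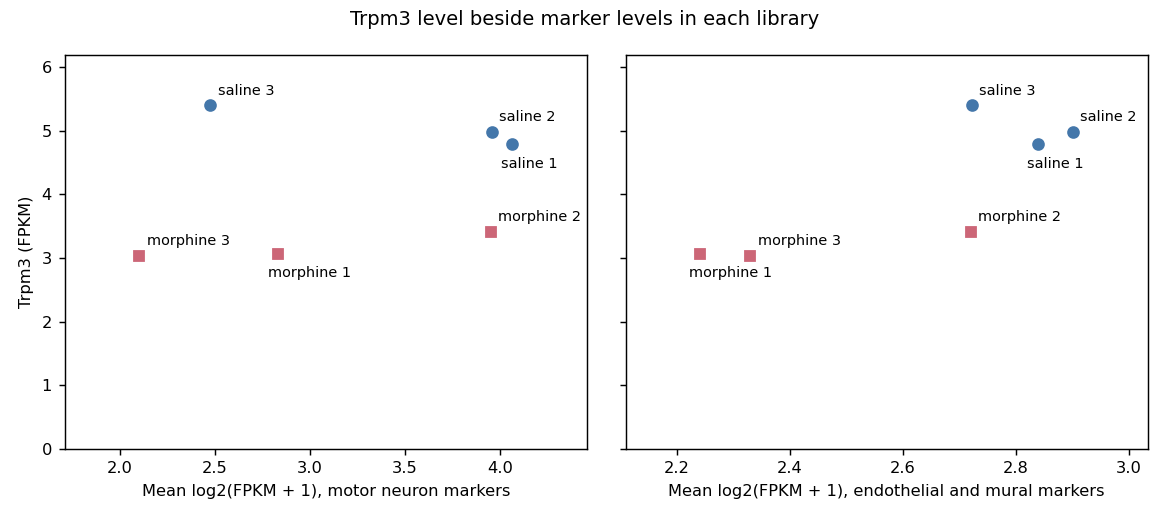
Trpm3 in FPKM against the mean log2(FPKM + 1) of motor neuron markers (left) and of endothelial and mural markers (right) in each library. The libraries high in motor neuron markers are 2 saline and 1 morphine, and those low in them 1 saline and 2 morphine. The endothelial and mural level is lower in morphine 1 and morphine 3 (2.24 and 2.33) than in the other 4 libraries (2.72 to 2.90). Morphine 2 (2.720) lies just under saline 3 (2.723), the lowest of saline, so the groups do not overlap.

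Trpm7 and Trpm6 join a cation channel to a protein kinase in one polypeptide and carry magnesium, zinc and calcium. Trpm7 (chromosome 2, 126791565 to 126876230, minus strand) is made in nearly all cells. It was at 9.94, 12.22 and 10.19 FPKM in saline 1, 2 and 3, against 14.44, 12.60 and 11.54 FPKM in morphine 1, 2 and 3. The groups overlapped, since saline 2 lay above morphine 3. The log2 fold change of 0.23 (95% interval -0.02 to 0.49) did not pass (limma adjusted p = 0.263). Trpm6 (chromosome 19, 18749983 to 18892511, plus strand), the magnesium channel of gut and kidney epithelium, was near the bottom of the range. It was at 0.18, 0.13 and 0.19 FPKM in saline, against 0.29, 0.25 and 0.20 FPKM in morphine. Each morphine value was above each saline value, by as little as 0.01 FPKM between saline 3 and morphine 3. Over the longest coding transcript these stand for about 24, 21 and 25 fragments in saline and 35, 27 and 23 in morphine, which overlap. The Trpm6 level was 0.0106 to 0.0201 of that of Trpm7 in the same library. Fitted without the filter, Trpm6 had an adjusted p of 0.419 in limma.

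Trpm2 (chromosome 10, 77907722 to 77970563, minus strand) opens on ADP-ribose and calcium and is known as a sensor of oxidative stress in microglia and neurons. It was at 11.08, 10.42 and 11.36 FPKM in saline 1, 2 and 3, against 10.89, 8.28 and 10.46 FPKM in morphine 1, 2 and 3. All but morphine 2 lay close together, and the groups overlapped. The log2 fold change was -0.14 (95% interval -0.39 to 0.11, limma adjusted p = 0.468). Trpm7 over Trpm2 was 0.897, 1.17 and 0.897 in saline, against 1.33, 1.52 and 1.10 in morphine, with overlapping groups (exact permutation p = 0.2). In the order of mean levels Trpm2 and Trpm7 led with overlapping values in saline, at 10.95 and 10.78 FPKM, and in morphine Trpm7 led at 12.86 FPKM, with each of its values above those of Trpm2.

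Trpm4 and Trpm5 form channels that open on intracellular calcium and pass sodium and potassium but hardly any calcium, so that a calcium signal becomes a depolarisation. Trpm4 (chromosome 7, 45302632 to 45333780, minus strand) was at 5.92, 5.32 and 5.98 FPKM in saline 1, 2 and 3, against 10.01, 7.25 and 5.94 FPKM in morphine 1, 2 and 3. Morphine 1 was far above the rest and morphine 3 within the saline range. The log2 fold change of 0.35 had a wide interval (-0.04 to 0.73) and did not pass (limma adjusted p = 0.264). It was 0.17 without morphine 1 and 0.50 without morphine 3. Abcc8, the sulphonylurea receptor Sur1 that can associate with Trpm4, was at 6.84, 6.35 and 7.05 FPKM in saline, against 11.09, 9.35 and 9.08 FPKM in morphine. Its groups did not overlap, and its log2 fold change of 0.48 just missed the threshold (limma adjusted p = 0.0547). It passed after median centring (0.0428), with the motor neuron covariate (0.0476) and without morphine 2 (0.0489), and in none of the other 13 fits, where the adjusted p reached 0.173. Trpm4 over Abcc8 was 0.866, 0.838 and 0.848 in saline, against 0.903, 0.775 and 0.654 in morphine, so the ratio was tighter in saline.

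Trpm5 (chromosome 7, 143069153 to 143094642, minus strand), the channel of taste transduction, was at 0.76, 0.87 and 0.76 FPKM in saline 1, 2 and 3, against 0.58, 0.71 and 0.25 FPKM in morphine 1, 2 and 3. The groups did not overlap, with morphine 3 well under the others. Over its longest coding transcript these values stand for about 62, 86 and 62 fragments in saline and 44, 48 and 18 in morphine. Fitted without the filter, its log2 fold change of -0.26 did not pass (limma adjusted p = 0.429). Its exons share 220 bp with those of Tssc4 on the opposite strand, which reached 42.4 FPKM, so the level of Trpm5 is uncertain.

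Groups that do not overlap were common in these data. They were found in 28.7% of tested genes and in 8.62% of genes under the filter, and here in 1 of 5 channel genes in the test (Trpm3) and 2 of 5 under it (Trpm5 and Trpm6). In the fit without the filter 0 of the 10 passed, Trpm3 included, beside 0.0286% of the 28021 genes. At an unadjusted p under 0.05 in the filtered fit, 1 of the 5 stood out, beside 22.3% of tested genes.

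Trpv2 (chromosome 11, 62574486 to 62600515, plus strand), a channel linked to membrane stretch and strong heat and found in macrophages, neurons and glia, was the one TRPV gene in the test. It was at 5.47, 5.38 and 4.87 FPKM in saline 1, 2 and 3, against 4.53, 4.89 and 4.08 FPKM in morphine 1, 2 and 3. The groups overlapped by 0.02 FPKM, between saline 3 and morphine 2. Its log2 fold change was -0.18 (95% interval -0.40 to 0.03, limma adjusted p = 0.287). Within each group its lowest value fell in a library low in motor neuron markers, saline 3 and morphine 3. With the level of these markers as a covariate its log2 fold change was -0.13 (limma adjusted p = 0.282), and their part in the Trpv2 values was not tested further. Microglia and macrophage markers, as background for Trpm2 and Trpv2, had 10 of 10 genes tested and 0 called by limma. At an unadjusted p under 0.05 there was 1 of the 10, beside 22.3% of all tested genes. The summed level of these markers was 152 to 168 FPKM in saline, against 143 to 169 FPKM in morphine.

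Trpv4 (chromosome 5, 114622152 to 114658421, minus strand) answers to cell swelling, warmth and lipid messengers, and is known from endothelium and astrocyte endfeet. It was at 0.34, 0.46 and 0.23 FPKM in saline 1, 2 and 3, against 0.42, 0.67 and 0.49 FPKM in morphine 1, 2 and 3, which overlap. About 14 to 35 fragments stood behind each value, and the unfiltered fit gave an adjusted p of 0.445 in limma. Aqp4, the astrocyte water channel that can act together with Trpv4, was at 135.9, 131.5 and 120.9 FPKM in saline, against 87.2, 115.9 and 106.2 FPKM in morphine. Its groups did not overlap and its log2 fold change of -0.33 did not pass (limma adjusted p = 0.134), while the value of Trpv4 was on the other side of 0.

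Trpv1 (chromosome 11, 73234292 to 73261242, plus strand), the capsaicin receptor, and Trpa1 (chromosome 1, 14872648 to 14918862, minus strand), the receptor for mustard oil and other irritants, were close to the limit of detection. Trpv1 was at 0.09, 0.24 and 0.03 FPKM in saline 1, 2 and 3, against 0.04, 0.07 and 0.07 FPKM in morphine 1, 2 and 3. Trpa1 was at 0.05, 0.20 and 0.07 FPKM in saline, against 0.10, 0.07 and 0.05 FPKM in morphine. In each gene saline 2 stood above the other 5 libraries, which lay close together.

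Over the longest coding transcript, Trpv1 had about 19 fragments in saline 2 (95% Poisson interval 11.6 to 29.9) and 2 to 6 elsewhere. Trpa1 had about 21 in saline 2 (12.6 to 31.5) and 4 to 8 elsewhere. Such intervals cover counting error only. A difference between the groups was not detectable at this depth (limma adjusted p = 0.661 for Trpv1 and 0.762 for Trpa1, fitted without the filter), and without saline 2 the log2 fold changes were 0.00045 and 0.018. The 10 sensory neuron markers spanned a wide range. The nociceptor sodium channel genes Scn10a and Scn11a did not exceed 0.02 FPKM in any library, nor Mrgprd, Prdm12 and Avil 0.15 FPKM. P2rx3, an ATP-gated channel of nociceptors, was at 0.67, 0.75 and 0.82 FPKM in saline, against 0.63, 0.31 and 0.54 FPKM in morphine, without overlap (limma adjusted p = 0.379, fitted without the filter). Isl2 and Nefh, which motor neurons also make, lay between 0.16 and 2.26 FPKM and between 207 and 494 FPKM. The part of sensory neuron RNA in the Trpv1 and Trpa1 values was not tested. Calca, the CGRP precursor that motor neurons make as well, was at 20.8 to 112.9 FPKM and was highest in saline 1, saline 2 and morphine 2, the libraries high in motor neuron markers.

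**Figure D4:**
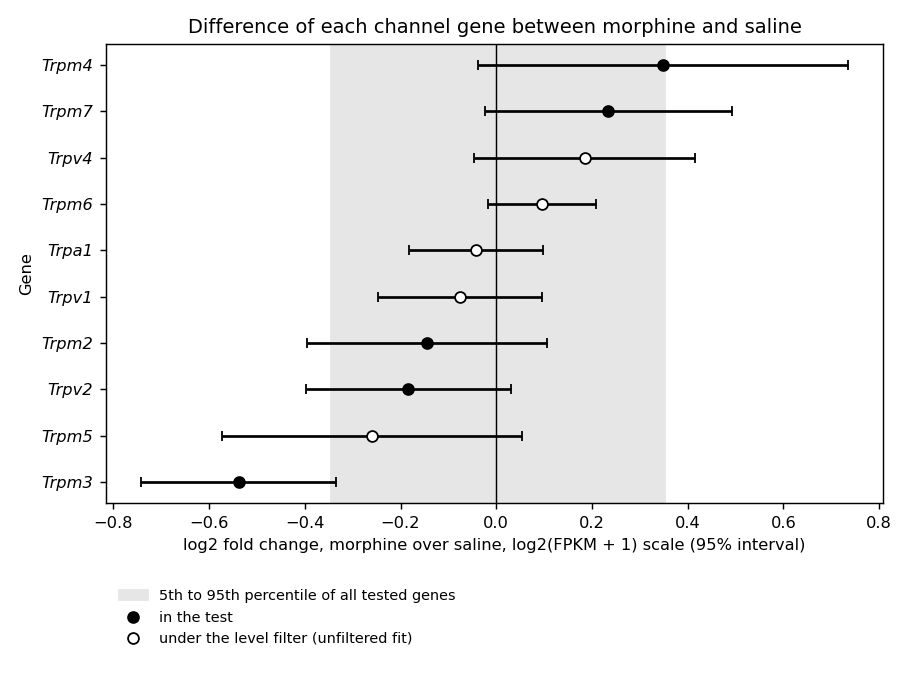
Log2 fold change of each channel gene, morphine over saline, on the log2(FPKM + 1) scale with its 95% interval; open points come from the fit without the level filter, and the grey band spans the 5th to 95th percentile of all tested genes (-0.35 to 0.35). Only the interval of Trpm3, among these 10, excludes 0.

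In sum over the 10 genes, the libraries held 38.6, 40.2 and 39.1 FPKM in saline, against 44.4, 38.2 and 36.1 FPKM in morphine, so the family total did not separate the groups. Trpm7 made up 27.4% of the mean total in saline and 32.5% in morphine, and Trpm3 made up 12.9% and 8.02%. In the saline order Trpm4, Trpv2 and Trpm3 followed Trpm2 and Trpm7 with overlapping neighbours, at 5.74, 5.24 and 5.06 FPKM. In morphine these 3 separated, with Trpm4 at 7.73, Trpv2 at 4.50 and Trpm3 at 3.17 FPKM and no overlap between neighbours. In saline Trpm5 (0.797 FPKM) and Trpv4 (0.343 FPKM) were each separate from their neighbours, and Trpm6, Trpv1 and Trpa1 overlapped at 0.107 to 0.167 FPKM. In morphine Trpv4, Trpm5 and Trpm6 overlapped in turn at 0.527, 0.513 and 0.247 FPKM, and Trpa1 and Trpv1 lay below them at 0.0733 and 0.0600 FPKM with overlapping values.

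Across the 6 libraries Trpm3 had its most similar pattern in Gabrb2, a GABA-A receptor subunit (Pearson's r = 0.996, Spearman's rho = 0.886), and Dhx9, an RNA helicase (r = 0.995, rho = 1). For Trpm2 these were Fbxl18, an F-box protein, and Kcnq3, a potassium channel (r = 0.992 and 0.988, rho = 0.886 and 1). Trpm4 had Ptpn23, a phosphatase-like protein of endosomal sorting, and Toporsos, a transcript opposite Topors (r = 0.994 and 0.985, rho = 0.943 and 0.783). Trpm7 had Ccnh, cyclin H, and Nsmce3, a subunit of the SMC5/6 complex (r = 0.988 and 0.987, rho = 0.943 for each). Trpv2 had Fyco1, an adaptor of vesicle transport, and Gab2, a signalling adaptor (r = 0.996 and 0.995, rho = 1 for each). These are the highest of 12524 genes over 6 points that also share the group difference, and 708 genes exceeded r = 0.9 with Trpm3, so they are given as a description. Between the members, r ran from -0.68 for Trpm3 with Trpm7 to 0.76 for Trpm3 with Trpv2.

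Genes that supply or regulate these channels were counted in 5 lists, and the remaining TRP genes in another. Of 18 other TRP genes 6 were tested and 0 passed in limma, with 1 at an unadjusted p under 0.05, beside 22.3% of all tested genes. The TRPM and TRPV genes outside the 10 were scarce: Trpm1, Trpm8 and Trpv5 were at 0.05 FPKM or less in every library, Trpv3 at 0.18 to 0.38 FPKM and Trpv6 at 0.44 to 0.60 FPKM.

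Membrane phosphoinositides come from the kinases Pi4ka and Pip5k1c and are spent by phospholipase C. In that list 16 of 17 genes were tested, and 1 rose and 0 fell. Among all tested genes 0.944% rose and 0.561% fell. The median log2 fold change of the list was -0.01, beside -0.02 over all tested genes. Pi4ka, which makes PI4P at the plasma membrane, rose from 83.4, 86.0 and 87.5 FPKM in saline to 126.0, 105.2 and 122.2 FPKM in morphine. Its log2 fold change was 0.45 (limma adjusted p = 0.0465). The call held in 6 of 10 other settings and without morphine 2 (0.0257), but not without saline 1 (0.159), saline 2 (0.157), saline 3 (0.107), morphine 1 (0.154) or morphine 3 (0.141). Pip5k1c was at 40.8 ± 3.00 FPKM in saline, against 35.4 ± 3.27 FPKM in morphine, Plcd1 at 3.99 ± 0.184 and 4.59 ± 0.0473 FPKM, and Plcb1 at 10.6 ± 0.309 and 9.60 ± 0.367 FPKM (SD, n = 3 each), and these 3 did not pass.

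For the ligand of Trpm2, 9 of 10 enzymes of ADP-ribose and NAD turnover were tested, 0 passed in limma and 3 had an unadjusted p under 0.05, all lower, beside 11.1% of all tested genes in that direction. Parp1, the polymerase that builds poly(ADP-ribose) on damaged chromatin, was at 16.3 ± 1.19 and 13.4 ± 1.49 FPKM. Sarm1, an axonal NAD hydrolase, was at 7.55 ± 0.794 and 6.08 ± 0.0520 FPKM. Adprm, an ADP-ribose pyrophosphatase, was at 14.5 ± 0.958 and 12.2 ± 0.772 FPKM, and Nudt9, which also cleaves ADP-ribose, was at 57.0 ± 1.97 and 61.2 ± 2.88 FPKM (SD, n = 3 each, saline first). Among these 4 the groups of Sarm1 and Adprm did not overlap, being lower after morphine as in 15.7% of all tested genes.

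Magnesium and zinc transport, the setting of Trpm6 and Trpm7, had 15 of 15 genes tested and 0 passed in limma. Fold changes were negative in 13 of 15, beside 53.1% of all tested genes, with a median of -0.13 beside -0.02. An unadjusted p under 0.05 in the lower direction was found in 4 of 15, beside 11.1% of all tested genes. The transporters Slc41a1 and Nipa2 were at 19.1 ± 1.35 and 10.2 ± 0.380 FPKM in saline, against 15.8 ± 1.73 and 8.34 ± 0.914 FPKM in morphine. Nipa1 was at 30.6 ± 2.11 FPKM in saline, against 25.9 ± 2.51 FPKM in morphine (SD, n = 3 each). Nipal3 was at 22.94, 23.07 and 25.60 FPKM in saline, against 19.39, 20.19 and 21.80 FPKM in morphine. In 5 of the 15 genes, Slc41a1, Nipa2 and Nipal3 among them, the groups did not overlap and morphine was lower. Among all tested genes this held for 15.7%.

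Neurosteroid synthesis, the source of the Trpm3 ligand, had 6 of the 11 listed genes in the table tested and 0 passed in limma. At an unadjusted p under 0.05 there was 1 of the 6, beside 22.3% of all tested genes. Fdxr, which passes electrons to the mitochondrial steroid enzymes, had the smallest p of those tested, at 6.39 ± 0.263 and 8.76 ± 1.52 FPKM (limma adjusted p = 0.120). Under the level filter, Akr1c14 was at 0.71, 0.71 and 1.09 FPKM in saline, against 0.36, 0.30 and 0.27 FPKM in morphine. Its groups did not overlap, and it did not pass (limma adjusted p = 0.125, fitted without the filter). Srd5a1, a steroid reductase, and Sult2b1, a steroid sulphotransferase, were at 15.6 and 4.74 FPKM in saline, against 15.0 and 5.10 FPKM in morphine. Of 18 partners and regulators 15 were tested and 0 passed in limma. An unadjusted p under 0.05 was found for 2 in the higher and 1 in the lower direction. Among all tested genes 22.3% had such a p in either direction. Besides Abcc8 and Aqp4, Calm2, a calmodulin gene, had a small p, at 1166 ± 44.6 and 1292 ± 71.7 FPKM (SD, n = 3 each, saline first). Calmodulin binds many TRP channels and lends them calcium sensitivity.

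**Figure D5:**
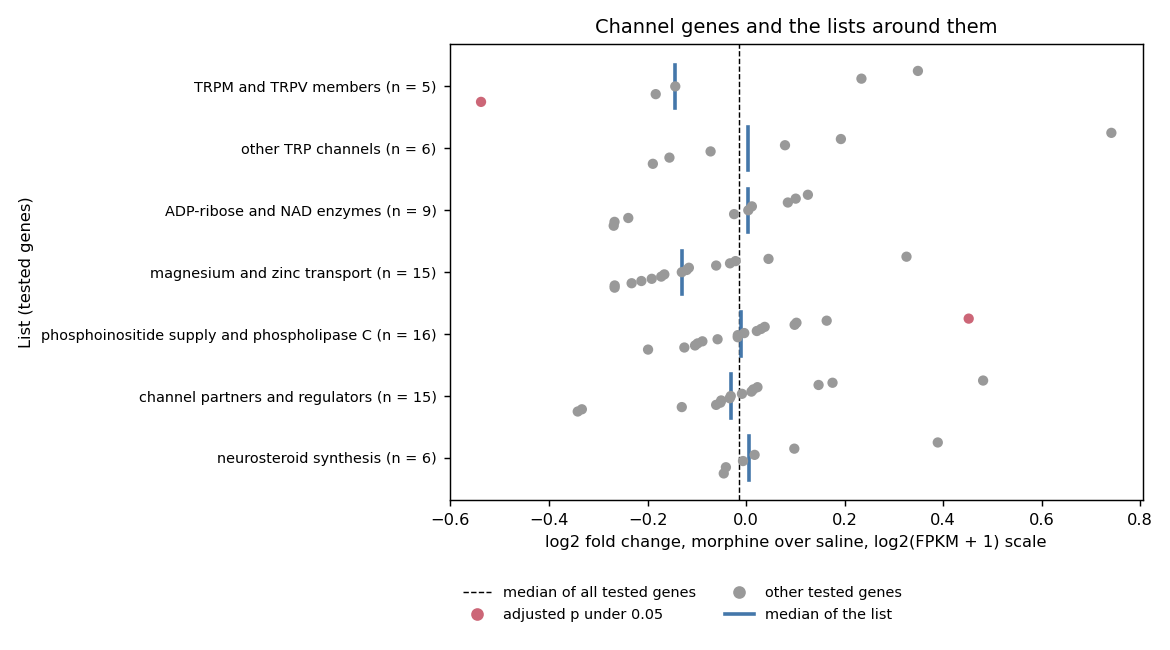
Log2 fold change, morphine over saline, of each tested gene of the channel family and of the 6 lists around it, with the median of each list (blue) and of all tested genes (dashed, -0.02). Coloured points passed an adjusted p of 0.05: Trpm3 at -0.54 and Pi4ka at 0.45.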

How the data were processed

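The authors deposited 1 FPKM value per gene and library. The submitters' processing notes name RSEM, STAR, Trimmomatic and bcl2fastq 2.19.0 as tools and mm10 as build; the annotation release and strand setting are not given in the sources used. Libraries came from a KAPA stranded kit, per the labels. Values were used unscaled as log2(FPKM + 1). The 14614 genes reaching 1 FPKM in 3 or more of 6 libraries entered limma (version 3.58.1, under R 4.3.3) with the variance trend on intensity, two-sided, Benjamini-Hochberg over all genes, threshold 0.05, and members under that level were read from the same fit over 28021 genes above 0. On simulated data the fit recovered 48.6% of 1.5-fold and 83.1% of 2-fold changes, so changes of 1.5-fold or less can be missed. Loci, lengths and overlaps came from GENCODE M21 (mm10), which held 14588 of the tested genes. Depth was estimated from single-transcript genes (300 to 1500 nt, at most 6 fragments): 69.9% to 73.7% of values lay near whole fragments (within 0.05, or the rounding of the table), against 12.6% to 15.8% for evenly spread values. Fragment numbers are approximate and assume the longest coding transcript. Named genes are the 10 members, up to 4 genes of each list with the smallest p, markers by level or p, and the 2 genes of the most similar pattern per tested member. Sensory neuron and choroid plexus markers, Srd5a1, Sult2b1, Akr1c14 and the scarce TRP genes were named for their role or after their values were seen. The members and lists were chosen with earlier results of these data known. Other software was NumPy 2.4.6, pandas 2.3.3, matplotlib 3.10.9 and SciPy 1.17.1 in Python 3.11.15. Alternatives covered pseudocount, filter, scaling, replicate block, length, motor neuron markers, variance model and each library left out. Some genes that the naming rule selects are not reported here.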

Additional observations from a re-analysis of the deposited data

How the results depend on the processing

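Trpm3 kept its negative direction in all 16 alternatives, and 0 members were called higher in any of them. The count of members called lower was 0 rather than 1 without the filter, after quantile normalization, with the length trend removed, without the intensity trend, and in 5 of the 6 fits without 1 library (range 0 to 1). Genes called higher and lower, 138 and 82 as reported, were 6 and 2 without the filter, 47 and 55 after quantile normalization, 101 and 853 after rescaling to TPM (median log2 fold change of all genes -0.13 against -0.02), 350 and 137 after median centring, 14 and 19 with the length trend removed, 514 and 385 with the motor neuron covariate, and 14 and 22 without the intensity trend. Without 1 library they ranged from 0 to 531 and from 1 to 274. The replicate block left 17 genes higher, 7 lower and 0 members, with Trpm3 at a limma adjusted p of 0.0622. Same-numbered libraries had correlations of their deviations of -0.13, 0.16 and 0.29, and differently numbered ones from -0.34 to 0.24. With 3 libraries per group these values cannot settle whether the numbers pair libraries. The labels state no pairing, and the main fit used none. Without saline 2 the log2 fold changes of Trpv1 and Trpa1 turned positive, at 0.00045 and 0.018; over the 6 fits without 1 library they ranged from -0.13 to 0.00045 and from -0.078 to 0.018. The cause of these changes was not tested. At the depth of the scarce members, 2 to 86 fragments per library, small differences could not be resolved.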
